A study of Anopheles gambiae with 6 samples.

Results

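The transcripts described here are those whose array identifiers name no placed chromosome arm. They were taken as all rows of the deposited table that begin with Ag.UNKN., a rule on the identifier's form that uses no measured value. The choice was made with earlier results of these data known. There are 1938 such probe sets among 16884 of Anopheles form (11.5%) and 22761 rows in all. Anopheles gambiae, a malaria vector, supplied 4th-instar larvae of strain G3, whose labels name rearing in distilled water on yeast and fish food and no drug or infection. One group of 3 Affymetrix arrays carried RNA of dissected salivary glands, each pooled from 50 larvae that were chilled on ice and dissected in ethanol. The other group of 3 arrays carried RNA of whole larvae of the same instar, each pooled from 200. The labels call the pools biological repeats, and both groups share strain, stage and rearing. A whole larva contains its glands, so the comparison sets a part against the whole.

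A genome assembly usually leaves some scaffolds unanchored, because they are short, rich in repeats, heterochromatic, or alternative versions of a placed region. Genes predicted on such scaffolds are known only by scaffold until they are anchored, and some are repeats, fragments or second copies of placed genes. The larval salivary gland of mosquitoes is a secretory organ that opens into the mouthparts, and its nuclei hold polytene chromosomes. The ending of an Affymetrix identifier tells how specific a probe set was designed to be. A plain _at was designed for a single transcript and _a_at for several transcripts of a single gene. An _s_at was designed to match transcripts of several genes, and _x_at holds probes that may bind unrelated sequences. The files and the gene table used here name a gene for 0 of the 1938 probe sets, so members are given by identifier, and neither tissue could be checked against marker genes.

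Arrays of one tissue resembled each other across the unplaced probe sets. Pearson's r across these probe sets, which are not independent replicates, was 0.977 to 0.981 for pairs of gland arrays, 0.901 to 0.932 for pairs of whole-larva arrays and 0.835 to 0.886 across tissues. Values are log2 RMA values throughout, and the number of arrays limits their precision. Brightness also depends on the probes themselves, so a level is a signal and not an amount of RNA comparable between probe sets. In RNA from pooled tissue, fewer cells of a type and less RNA per cell cannot be told apart.

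The unplaced probe sets were dim. Their median was 5.47, 5.47 and 5.46 on the gland arrays and 5.30, 5.21 and 5.35 on the whole-larva arrays. For the 10504 probe sets of arms 2L, 3L, 3R and X, the medians were 5.87, 5.88 and 5.86 in gland and 5.97, 5.95 and 5.87 in whole larvae. All 6 arrays thus gave a lower median for the unplaced set, by 0.40 to 0.41 in gland and by 0.52 to 0.74 in whole larvae (log2). The gap was wider among bright probe sets: the 95th percentile of the unplaced set was 7.86 ± 0.014 (gland) and 7.97 ± 0.17 (whole larvae), against 9.17 ± 0.051 and 9.56 ± 0.086 for the placed arms (SD, n = 3 each). Averaged over all 6 arrays, 720 members (37.2%) lay under a level of 5, against 21.2% of placed probe sets, and 47 (2.43%) reached 9, against 5.36%.

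2 floors were set on each array to describe detection. The lower floor was the 95th percentile of 4502 probe sets of Plasmodium form, and 1576 members (81.3%) exceeded it on all 3 gland arrays and 1587 (81.9%) on all 3 whole-larva arrays. Among placed probe sets these shares were 92.9% and 93.3%. The higher floor was the 95th percentile of 290 probe sets with purely numeric identifiers, whose targets the sources used here do not give. It was exceeded by 274 members in gland (14.1%) and 400 in whole larvae (20.6%), against 24.7% and 38.5% of placed probe sets. Both tissues shared 251 members above it, 23 passed it only on gland arrays and 149 only on whole-larva arrays. Its height was 6.65 ± 0.036 on gland arrays and 6.02 ± 0.075 on whole-larva arrays (SD, n = 3 each), so it was stricter in gland.

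Most members carried the plain ending, and the multi-gene ending was more common than on the placed arms. Of the 1938, 1479 ended in _at (76.3%), 379 in _s_at (19.6%), 76 in _a_at (3.92%) and 4 in _x_at (0.206%). On the placed arms the shares were 72.3%, 5.99%, 21.7% and 0.0381%. Within the identifier, 1803 members named a coding sequence (CDS, 93.0%), 16 an untranslated region (UTR, 0.826%) and 119 neither (6.14%). Members ending in _s_at had a median level of 5.74 and those ending in _at one of 5.28. In both endings the placed probe sets were brighter, at 6.26 and 5.81. The lower level of the unplaced set was therefore also present within each of these endings. Members ending in _a_at, at 6.24 against 6.40, differed least from their placed counterparts.

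**Figure D1:**
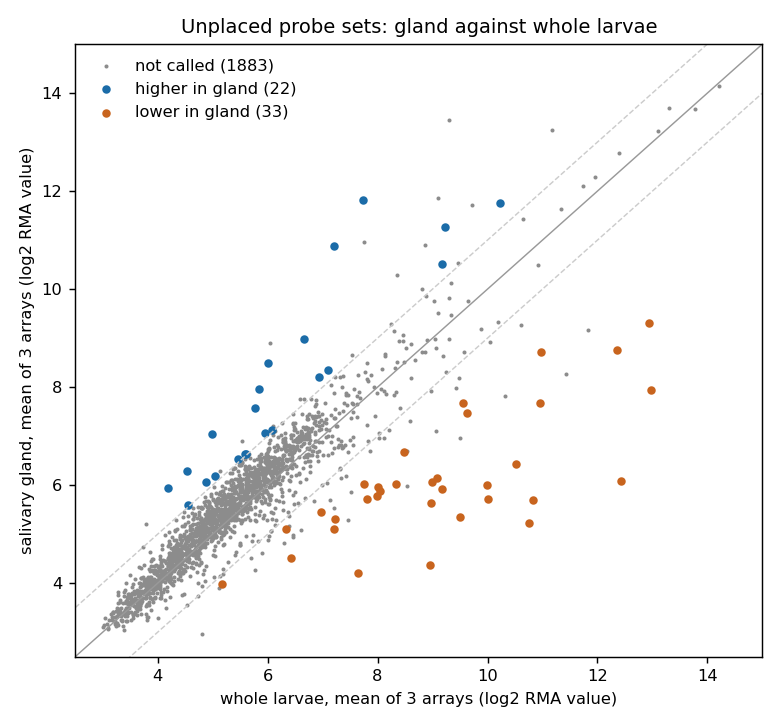
Mean log2 RMA value of each of the 1938 unplaced probe sets in whole larvae (x axis, 3 arrays) and in salivary gland (y axis, 3 arrays), with the line of equality and dashed lines at 2-fold. The 22 higher and 33 lower calls are coloured, and most of the uncalled probe sets lie near the line at levels under 7.

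Few unplaced probe sets differed between the tissues. In gland, 22 members were higher than in whole larvae (1.14%) and 33 were lower (1.70%). A call needed a Benjamini-Hochberg adjusted p under 0.01 in limma's moderated test over all 16884 Anopheles probe sets, at least a 2-fold difference, and the brighter group above the Plasmodium floor on its 3 arrays. By this rule 2.39% of all Anopheles probe sets were higher and 4.99% lower. Both shares of the unplaced set lay under these backgrounds. At least a 2-fold difference without any test was measured in 116 members (5.99%), against 13.5% of all Anopheles probe sets, and 61 of these 116 were not called. The counts leaned on the gland arrays: leaving out gland replicate 1, 2 or 3 gave 11, 4 or 9 rises and 20, 17 or 18 deficits. Leaving out whole-larva replicate 1, 2 or 3 gave 27, 15 or 17 rises and 41, 32 or 48 deficits. In all, 4 higher and 15 lower members were called in the full data and with each array left out in turn. Such stable calls were not counted for other probe sets. Lower calls made up 60% of the calls, which became 51.4% (36 higher, 38 lower) with a further quantile normalization and 89.7% (8 higher, 70 lower) with arrays centred by the numeric-identifier rows.

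Matching by level brought the placed shares closer to those of the unplaced set and left them above it. Probe sets of the placed arms were put in bins of 0.5 of the mean over all 6 arrays, and each bin was weighted by the number of members in it. Of the placed probe sets, 2.77% were higher and 5.00% lower in gland as they stood. At the levels of the unplaced set, the weighted shares were 1.60% higher and 3.21% lower, which corresponds to 31.1 and 62.1 calls among 1938, against the 22 and 33 found. The unplaced set thus had 0.708 times the level-matched share of higher calls and 0.531 times that of lower calls. Matching on the brighter group's mean gave 1.41% and 2.49%. The lower share depended on which level was matched, at 2.26% with the whole-larva mean and 4.81% with the gland mean, and the members' 1.70% was under both. In all 27 other settings, each array left out among them, both member shares stayed under the matched shares. These settings share arrays and probe sets and are not independent.

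**Figure D2:**
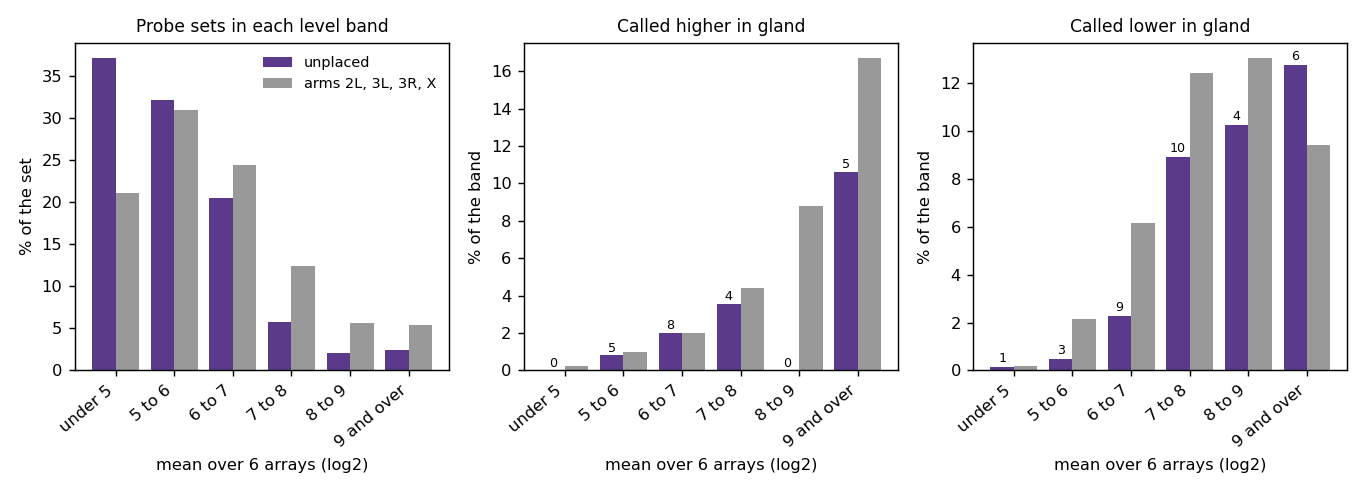
Bars show unplaced (purple) and placed (grey) probe sets by band of mean log2 level over 6 arrays: the share of each set in the band (left), and the share of the band called higher (middle) or lower (right) in gland, with the number of members called above the purple bars. Unplaced probe sets crowd the lowest bands, their lower calls are scarcer than the placed ones from 5 to 7, and at 9 and over 5 are higher and 6 lower.

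Lower calls were scarcer than on the placed arms in each band under 9. From 5 to 6, 3 of 623 members were lower (0.482%), against 2.15% of placed probe sets. From 6 to 7, 9 of 397 were lower (2.27%), against 6.18%. From 7 to 8, 10 of 112 were lower (8.93%), against 12.5%. From 8 to 9, 4 of 39 were lower (10.3%), against 13.1%. Among the 47 members at 9 and over, 6 were lower (12.8%), against 9.41% of 563 placed ones. Higher calls were close to the placed shares in the dimmer bands, with 5 members from 5 to 6 (0.803%, against 0.983%) and 8 from 6 to 7 (2.02%, against 1.98%). From 8 to 9, 0 of 39 members were called higher by limma, against 8.81% of placed probe sets, while 5 of the 39 were higher at an unadjusted p under 0.05. At 9 and over, 5 members were higher (10.6%), against 16.7%. At least a 2-fold difference was measured in 25 of those 47 members (53.2%), against 39.1% of placed probe sets of that band. This untested share includes members that varied widely between whole-larva pools. In that band the SD over whole-larva arrays exceeded 2 in 10 members (21.3%), none of them called, and in 1.24% of placed probe sets.

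Unplaced probe sets as a class lay slightly toward gland. Their median difference, gland minus whole larvae, was 0.18 (log2), against 0.062 for placed probe sets at matched level. Above 0 lay 71.5% of members and 55.4% of all placed probe sets, a share not matched by level. On single arrays, the median of the members minus that of level-matched placed probe sets was 0.094, 0.083 and 0.094 in gland and -0.11, -0.13 and 0.029 in whole larvae. Every gland array was above every whole-larva array in this measure, with means of 0.091 ± 0.0062 and -0.069 ± 0.085 (SD, n = 3 each). By level, the members' median was 0.23 from 5 to 6, 0.30 from 6 to 7, 0.17 from 7 to 8 and 0.33 at 9 and over, against 0.087, 0.031, -0.073 and -0.0023 for placed probe sets of those bands. From 8 to 9 the medians of -0.092 and -0.088 were alike. By ending, it was 0.21 for _at, 0.068 for _s_at and -0.083 for _a_at, against 0.075, 0.0034 and -0.014 at matched level. All gland arrays exceeded all whole-larva arrays in 637 members (32.9%) and the reverse held in 147 (7.59%), against backgrounds of 24.0% and 17.7%. The numeric-identifier probe sets moved the same way by a median of 0.37 at a median level of 4.78, and their part in the shift was not tested. With arrays centred by them, the median over all Anopheles probe sets was -0.36 and that of the members -0.24, so the members' sign turned. With that centring, 22.5% of members lay above 0. Centring moves all probe sets of an array alike, so the members' gap of 0.12 over the level-matched placed ones could not change.

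Precision differed little from that of placed probe sets of the same level. Standard errors of the difference had a median of 0.169 for members and 0.175 for level-matched placed probe sets. The median SD between arrays was 0.135 in gland in both sets, and 0.221 (members) against 0.240 (matched) in whole larvae. The 90th percentile of the absolute difference was 0.80 for members and 0.96 for matched ones, while the medians were alike at 0.27 and 0.27. The unplaced set thus held fewer large differences at about the same standard error. At 9 and over the order of the standard errors turned, at 0.307 for members and 0.267 for placed probe sets.

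Lower calls sat mostly on multi-gene probe sets. Of the 33 lower members, 18 ended in _s_at, 12 in _at and 3 in _a_at, while of the 22 higher ones 15 ended in _at, 5 in _s_at and 2 in _a_at. Among members ending in _s_at, 4.75% were lower and 1.32% higher, against 6.27% and 0.840% of placed probe sets with that ending at matched level. Among those ending in _at, 0.811% were lower and 1.01% higher, against 2.37% and 1.38%. Placed probe sets ending in _s_at also had more lower calls than those ending in _at, at 8.11% and 4.10%. A signal from transcripts of other loci in _s_at probe sets was not tested. Without probe sets ending in _s_at or _x_at before the fit, 17 members were higher and 16 lower.

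**Figure D3:**
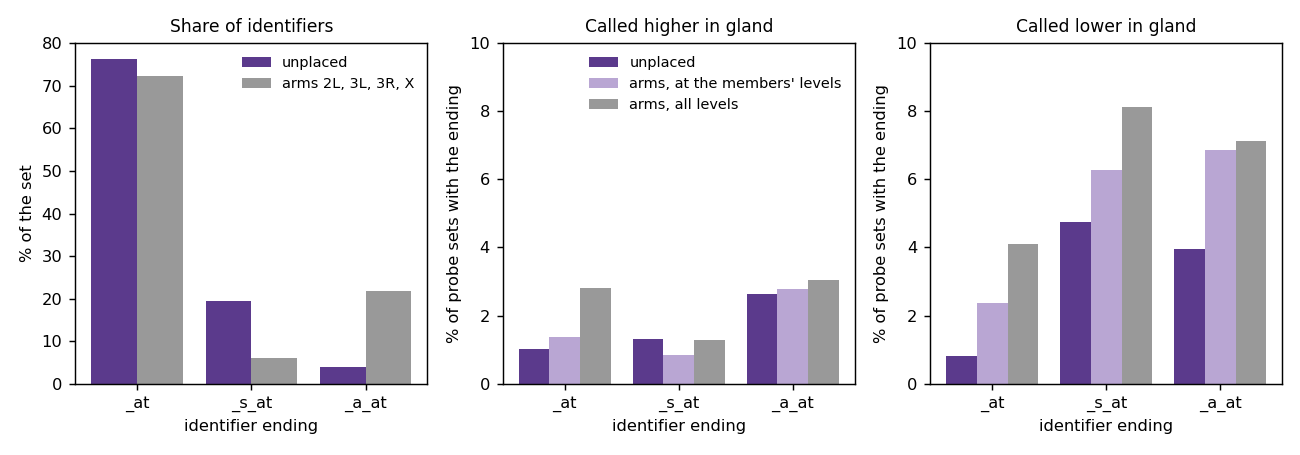
Share of identifiers with each ending (left), and share called higher (middle) or lower (right) in gland, for unplaced probe sets (purple), placed probe sets weighted to the members' levels (pale) and all placed probe sets (grey). The ending _x_at, with 4 members and 0 calls, is left out, and _s_at makes up 19.6% of the unplaced set.

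The higher members were moderate in size. Their median log2 difference was 1.43 (2.70-fold), 7 of 22 reached 4-fold and 1 reached 16-fold. The median level was 7.36 in gland against 5.89 in whole larvae. With a bound in place of the fold for members under the numeric floor in whole larvae, the median over the 20 members that then have a fold was 2.39-fold. Members whose gland mean did not exceed that floor have no bound and were left out, so this median leans high. Of the 22, 14 also exceeded the numeric floor on all 3 gland arrays and are called bright here, and 11 lay under that floor on all 3 whole-larva arrays. All 22 had groups that did not overlap, which a small p and a 2-fold difference favour. The 12 bright ones with the largest difference are named below, and the other 2 bright ones, Ag.UNKN.445.0_CDS_at and Ag.UNKN.978.0_CDS_at, differed by 1.13 and 1.05.

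The largest rise was in Ag.UNKN.836.0_CDS_s_at, a coding-sequence probe set designed for several genes. It measured 11.27, 11.62 and 12.54 on the gland arrays and 7.29, 8.07 and 7.87 on the whole-larva arrays. Gland replicate 3 was the brightest array and no gland array came near the whole-larva arrays. This gave gland minus whole larvae at 4.07 on the log2 scale (SE 0.375, adjusted p by limma = 3.65e-04), or 16.8-fold. Ag.UNKN.400.0_CDS_s_at, also a multi-gene coding probe set, measured 10.52, 10.51 and 11.59 on the gland arrays and 6.93, 6.90 and 7.78 on the whole-larva arrays. Replicate 3 was again the brightest in gland, and also in whole larvae. It had gland minus whole larvae at 3.67 on the log2 scale (SE 0.382, adjusted p by limma = 6.58e-04), or 12.7-fold. The third rise by size, Ag.UNKN.215.0_CDS_s_at, measured 8.58, 8.37 and 8.55 on the gland arrays and 6.08, 6.39 and 5.54 on the whole-larva arrays. Its gland arrays lay close together and the spread was in whole larvae, with gland minus whole larvae at 2.49 on the log2 scale (SE 0.248, adjusted p by limma = 5.22e-04). Its whole-larva signal exceeded the numeric floor on 2 of 3 arrays, so no fold is given. These 3 and Ag.UNKN.1974.0_CDS_s_at were the bright higher members whose call held with each array left out in turn.

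Ag.UNKN.1974.0_CDS_s_at was dimmer, at 7.26, 7.16 and 6.73 on the gland arrays and 5.27, 4.70 and 4.99 on the whole-larva arrays. All 3 whole-larva arrays were under the numeric floor, so gland was at least 2.04-fold brighter (measured difference 2.07, SE 0.212, adjusted p by limma = 6.08e-04). Such a bound sets the bright group's mean against the numeric floor, or against the array's own value where that was higher. Ag.UNKN.75.0_CDS_s_at was bright in both tissues and tight in gland, at 11.24, 11.30 and 11.28 on the gland arrays and 8.87, 9.36 and 9.43 on the whole-larva arrays. It had gland minus whole larvae at 2.05 on the log2 scale (SE 0.226, adjusted p by limma = 8.55e-04), a call lost without gland replicate 2. Ag.UNKN.2347.0_at, which names no coding or untranslated target, measured 8.73, 9.04 and 9.19 on the gland arrays and 6.38, 6.30 and 7.34 on the whole-larva arrays. Its difference was 2.31 (adjusted p by limma = 0.00237), lost without gland replicate 2 or 3. Ag.UNKN.803.0_CDS_at measured 7.58 ± 0.33 (gland) and 5.77 ± 0.22 (whole larvae; SD, n = 3 each), at least 2.95-fold, and was lost without gland replicate 2.

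The remaining named rises were less stable. Ag.UNKN.2641.0_at ranged widely in gland, at 8.71, 8.12 and 7.07 on the gland arrays and 5.83, 5.94 and 5.76 on the whole-larva arrays. Its difference of 2.12, at least 3.85-fold, was called in the full data and in 1 of the 6 fits with an array left out, the one without gland replicate 3. Ag.UNKN.1415.0_CDS_at and Ag.UNKN.1286.0_CDS_at rose by 1.26 and 1.25, and each was lost in 5 of the 6 fits with an array left out, kept only without whole-larva replicate 1. Both probe sets of number 53, one for the coding sequence and one for the untranslated region, rose together. Ag.UNKN.53.0_UTR_a_at measured 11.51, 11.94 and 11.83 on the gland arrays and 10.66, 10.03 and 10.02 on the whole-larva arrays. Ag.UNKN.53.0_CDS_a_at measured 10.49, 10.38 and 10.64 on the gland arrays and 9.29, 8.94 and 9.27 on the whole-larva arrays. The differences were 1.53 and 1.34 (adjusted p by limma = 0.00573 and 0.00472), and the calls were lost in 5 and 4 of the 6 fits with an array left out, each gland array among them. They share a number and are not independent measurements.

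**Figure D4:**
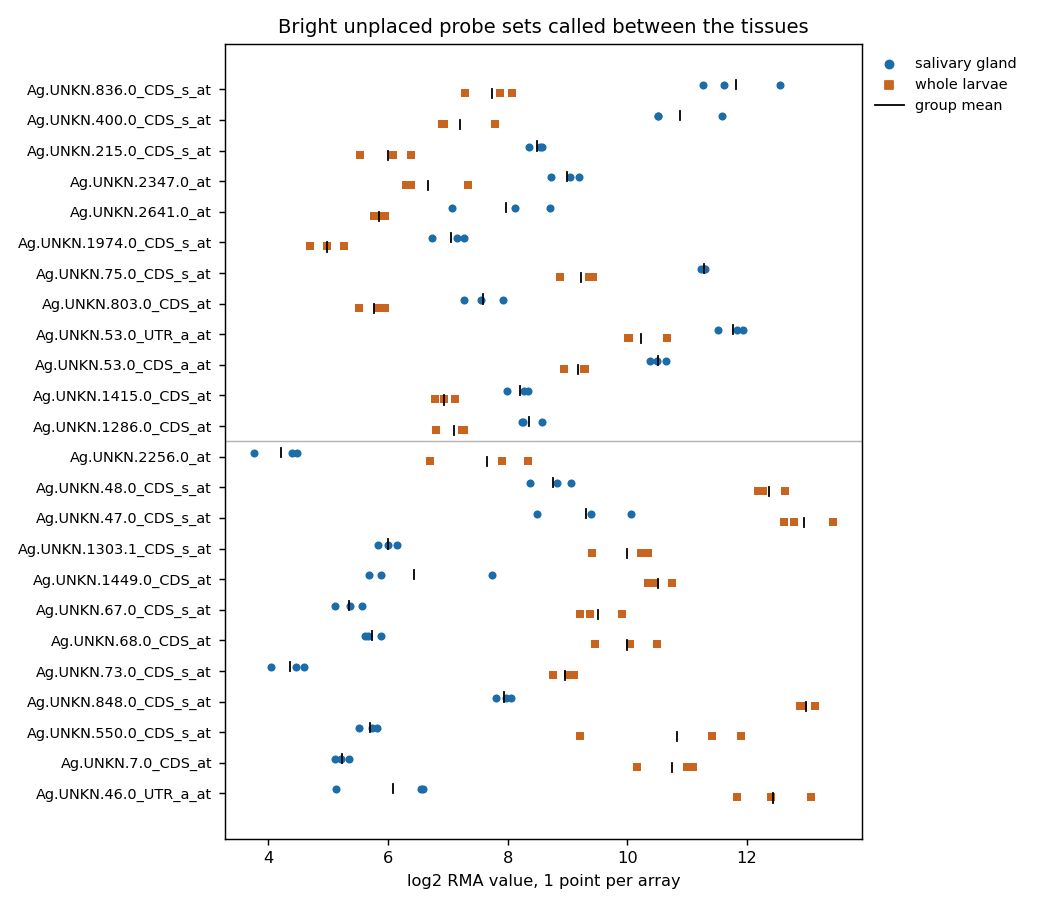
Log2 RMA value on each of 6 arrays for the 12 bright unplaced probe sets with the largest rise (top) and the 12 with the largest deficit (bottom) in gland. Circles are gland arrays, squares whole-larva arrays and black ticks group means. Groups that do not overlap were a condition for being among the 24, and the deficits span a wider range than the rises.

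Deficits in gland had a larger median size than rises, a difference that was not tested. The 33 lower members had a median log2 difference of -2.92, or 7.57-fold, and 25 reached 4-fold and 8 reached 16-fold. Over all Anopheles probe sets the median was -2.44 for the 843 lower ones and 1.80 for the 403 higher ones, so the imbalance was also present there and the members' rises lay under that median. The members' median level was 5.92 in gland against 8.995 in whole larvae. For 24 of the 33, all 3 gland arrays lay under the numeric floor, so that the fold is a bound. The median with bounds was 4.98-fold, over 30 members. It leans high, because members whose whole-larva mean did not exceed the gland arrays' floor have no bound and were left out. On all 3 whole-larva arrays, 31 of the 33 exceeded the numeric floor of those arrays, which was lower than the gland arrays' floor. Of the 12 named below, 10 kept their call with each array left out in turn.

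The largest deficit was in Ag.UNKN.46.0_UTR_a_at, a probe set for an untranslated region. It measured 6.58, 5.13 and 6.55 on the gland arrays and 11.84, 13.06 and 12.40 on the whole-larva arrays. Gland replicate 2 was the dimmest, and all gland arrays were under the numeric floor. The measured difference was -6.35 (SE 0.470, adjusted p by limma = 1.23e-04), a fold of at least 55.0 in favour of whole larvae. Ag.UNKN.7.0_CDS_at, a coding probe set with the plain ending, measured 5.35, 5.22 and 5.12 on the gland arrays and 10.16, 10.99 and 11.10 on the whole-larva arrays. Its gland values lay within 0.23 of each other, with gland minus whole larvae at -5.52 on the log2 scale (SE 0.282, adjusted p by limma = 3.48e-05), a fold of at least 17.1. Ag.UNKN.848.0_CDS_s_at was bright in whole larvae and above the numeric floor in gland, at 8.06, 7.80 and 7.97 on the gland arrays and 12.93, 13.13 and 12.88 on the whole-larva arrays. Both tissues were tight, with gland minus whole larvae at -5.04 on the log2 scale (SE 0.200, adjusted p by limma = 2.11e-05), or 32.8-fold lower in gland.

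A plain coding probe set of the same number as the last gave another result. Ag.UNKN.848.0_CDS_at measured 6.56, 6.98 and 6.51 on the gland arrays and 6.68, 6.06 and 6.52 on the whole-larva arrays, with overlapping groups and gland minus whole larvae at 0.26 on the log2 scale (SE 0.226, adjusted p by limma = 0.456). The multi-gene probe set of number 848 thus differed by over 5 log2 units and the plain one did not pass the test. Number 1303 gave deficits at both its probe sets, of which a single one passed. Ag.UNKN.1303.1_CDS_s_at measured 6.15, 6.004 and 5.83 on the gland arrays and 10.22, 9.40 and 10.34 on the whole-larva arrays, a difference of -3.99 (adjusted p by limma = 1.07e-04, at least 10.1-fold). Ag.UNKN.1303.0_CDS_at measured 7.15, 6.85 and 6.87 on the gland arrays and 10.64, 8.58 and 9.27 on the whole-larva arrays, a difference of -2.54 (adjusted p by limma = 0.0104), which passed without whole-larva replicate 1 or 2.

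The coding probe sets of numbers 47 and 48, neighbours in the identifier series, were among the brightest lower members and kept a clear gland signal. Ag.UNKN.47.0_CDS_s_at measured 8.49, 9.39 and 10.05 on the gland arrays and 12.78, 12.62 and 13.43 on the whole-larva arrays. Its gland arrays spread over 1.56, and it had gland minus whole larvae at -3.63 on the log2 scale (SE 0.415, adjusted p by limma = 0.00103). Ag.UNKN.48.0_CDS_s_at measured 9.05, 8.83 and 8.37 on the gland arrays and 12.26, 12.63 and 12.19 on the whole-larva arrays. It had gland minus whole larvae at -3.61 on the log2 scale (SE 0.253, adjusted p by limma = 1.03e-04), or 12.2-fold lower. A second probe set of that number, Ag.UNKN.48.3_UTR_s_at, was also lower, with gland minus whole larvae at -3.26 on the log2 scale (SE 0.335, adjusted p by limma = 6.18e-04). Its gland arrays all lay under the numeric floor, so the fold is a bound of at least 5.77. The sources used here do not say what the numbering follows.

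Numbers 67, 68 and 73 were bright in whole larvae and lay under the numeric floor on all gland arrays. Ag.UNKN.67.0_CDS_s_at measured 5.35 ± 0.23 (gland) and 9.502 ± 0.37 (whole larvae; SD, n = 3 each), a difference of -4.15 and a fold of at least 7.21. Ag.UNKN.68.0_CDS_at measured 5.73 ± 0.14 and 10.001 ± 0.51 (SD, n = 3 each), a difference of -4.27 and at least 10.2-fold. Ag.UNKN.73.0_CDS_s_at was the dimmest of the 3 in gland, at 4.46, 4.59 and 4.05, against 9.01, 8.76 and 9.11 in whole larvae. Its measured difference of -4.59 shrank to a bound of 4.96-fold against the floor. Their adjusted p-values by limma were 5.81e-05, 8.27e-05 and 2.48e-05.

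The other 3 named deficits had uneven arrays. Ag.UNKN.550.0_CDS_s_at measured 5.82, 5.52 and 5.74 on the gland arrays and 9.21, 11.41 and 11.89 on the whole-larva arrays, with whole-larva replicate 1 over 2 log2 units under the others. Its difference of -5.14 (adjusted p by limma = 0.00144, at least 18.2-fold) lost its call without gland replicate 2 or 3. Ag.UNKN.1449.0_CDS_at measured 5.88, 7.74 and 5.68 on the gland arrays and 10.74, 10.34 and 10.47 on the whole-larva arrays. Gland replicate 2 stood above the other gland arrays, and the difference of -4.08 (adjusted p by limma = 0.00168) lost its call without gland replicate 1. Ag.UNKN.2256.0_at, which names no target type, measured 3.76, 4.48 and 4.39 on the gland arrays and 7.90, 8.35 and 6.71 on the whole-larva arrays, a difference of -3.44 (adjusted p by limma = 0.00129) called with each array left out in turn. Whole-larva replicate 3 lay just above the numeric floor and gland far under it, so the fold that could be measured is a small bound.

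Probe sets that share a number did not always share a direction. The 1938 members carry 1865 numbers, and 70 numbers have more than 1 probe set (143 probe sets). Of these 70, 8 had at least 1 call and 2 had 2 calls, numbers 48 and 53. In 4 of the 8, every probe set differed in the same direction. In the other 4, numbers 18, 848, 1326 and 1632, the called probe set and its partner had opposite signs, and 0 of these partners passed. Ag.UNKN.1632.0_CDS_s_at differed by -2.94 and was called, while Ag.UNKN.1632.1_at differed by 0.75 and was not (adjusted p by limma = 0.0117). Of the called probe sets in these 4, those of numbers 18, 848 and 1632 end in _s_at.

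The brightest unplaced probe sets were not called between the tissues. Ag.UNKN.1841.0_CDS_s_at measured 14.17, 14.16 and 14.10 on the gland arrays and 14.29, 14.13 and 14.20 on the whole-larva arrays, with overlapping groups and a difference of -0.067 (SE 0.132, adjusted p by limma = 0.754). Ag.UNKN.380.0_CDS_s_at measured 13.70, 13.64 and 13.67 on the gland arrays and 13.90, 13.62 and 13.83 on the whole-larva arrays, a difference of -0.11 (adjusted p by limma = 0.627). Ag.UNKN.97.0_CDS_s_at measured 13.81, 13.73 and 13.57 on the gland arrays and 13.47, 12.97 and 13.48 on the whole-larva arrays, a difference of 0.40 (adjusted p by limma = 0.186), whose sign turned (-0.027) with arrays centred by the numeric-identifier rows. These were the 3 brightest in each tissue, and all end in _s_at. A p that misses the threshold does not show that the levels were equal.

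Some bright members varied widely between whole-larva pools. The grouping was chosen after the values were seen and is a description without a test. In 16 members (0.826%) the SD over the 3 whole-larva arrays exceeded 2, against 50 of the placed probe sets (0.476%). Among probe sets at 9 and over these were 10 of 47 members (21.3%) and 7 of 563 placed ones (1.24%). By limma 0 of the 16 were called, 3 were higher and 1 lower in gland at an unadjusted p under 0.05, and 12 had overlapping tissue groups. Of the 16, 14 name no coding or untranslated target and carry numbers over 2200, a range that holds 88 members. On the placed arms 0.446% of probe sets that name no target had so large an SD, and among such members 11.8% did.

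3 patterns of whole-larva arrays could be seen among some of these 14. Ag.UNKN.2433.0_s_at measured 8.52, 10.38 and 8.61 on the gland arrays and 14.59, 13.80 and 7.09 on the whole-larva arrays, so that whole-larva replicates 1 and 2 were bright and replicate 3 was not. Replicate 3 was also by far the dimmest in Ag.UNKN.2335.0_s_at, Ag.UNKN.2231.0_s_at and Ag.UNKN.2212.0_at, at 6.06, 7.12 and 7.40, with the other replicates between 12.43 and 13.76. Ag.UNKN.2225.0_at measured 7.74, 8.45 and 7.74 on the gland arrays and 7.92, 13.02 and 7.36 on the whole-larva arrays, bright in whole-larva replicate 2 alone, and Ag.UNKN.2283.0_s_at and Ag.UNKN.2260.0_s_at reached 12.48 and 11.06 there, with the other whole-larva arrays between 6.83 and 7.61. The opposite was measured in Ag.UNKN.2210.0_s_at, at 11.68, 11.86 and 12.02 on the gland arrays and 10.49, 6.43 and 10.38 on the whole-larva arrays, where whole-larva replicate 2 was dim. Ag.UNKN.2219.0_s_at and Ag.UNKN.2434.0_s_at were also dimmest there, at 4.90 and 6.34. Ag.UNKN.2201.0_s_at, Ag.UNKN.2221.0_s_at, Ag.UNKN.2223.0_s_at and Ag.UNKN.2232.0_s_at were graded instead. In whole larvae they were brightest in replicate 2 and dimmest in replicate 3, with replicate 1 between. Gland replicate 2 was the brightest gland array in 12 of the 14. These are the 10 in which whole-larva replicate 2 was the brightest whole-larva array, Ag.UNKN.2433.0_s_at, and Ag.UNKN.2219.0_s_at, in which whole-larva replicate 2 was the dimmest. Of the 3 in which whole-larva replicate 2 was the dimmest, gland replicate 2 was the dimmest gland array in 1, so same-numbered arrays did not always go together. Ag.UNKN.2223.0_s_at was the clearest of these in gland, at 8.78, 12.74 and 7.74. The labels name no batch or rearing group that the replicate numbers share.

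**Figure D5:**
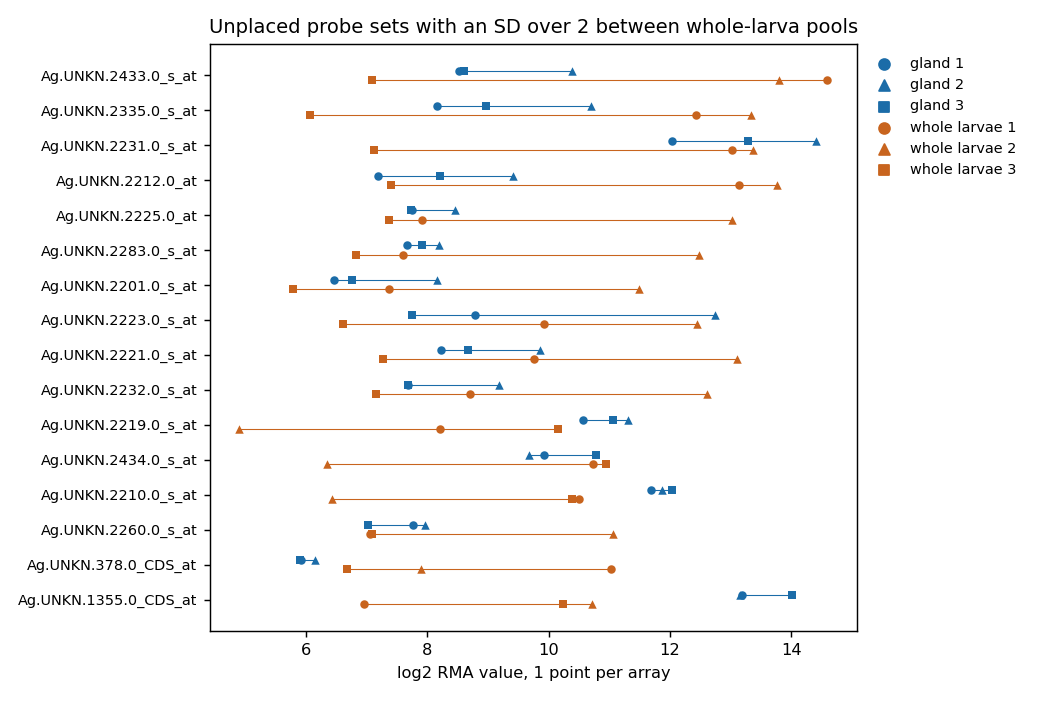
Log2 RMA value on each of 6 arrays for the 16 unplaced probe sets whose SD between whole-larva arrays exceeded 2, sorted by that SD. Colour gives the tissue and marker shape the replicate number; lines join the lowest and highest array of a tissue, and whole-larva replicate 2 is the brightest whole-larva array in most rows and the dimmest in 3.

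Some large mean differences were not called. Of 13 members with at least a 4-fold difference and no call, Ag.UNKN.1355.0_CDS_at had the largest, 4.14 (SE 0.895, adjusted p by limma = 0.0172). It measured 13.18, 13.16 and 14.002 on the gland arrays and 6.96, 10.72 and 10.24 on the whole-larva arrays, with no overlap and whole-larva replicate 1 far under the others. Its gland level of 13.45 ± 0.48 (SD, n = 3) was the fourth brightest among the members. Ag.UNKN.1737.0_CDS_at varied in gland instead, at 6.04, 9.29 and 11.36 on the gland arrays and 6.37, 6.38 and 5.39 on the whole-larva arrays, a difference of 2.85 (adjusted p by limma = 0.124). Ag.UNKN.377.0_CDS_at and Ag.UNKN.378.0_CDS_at, neighbours in number, were both brightest in whole-larva replicate 1. The first measured 8.87, 6.80 and 6.69 in whole larvae and the second 11.03, 7.90 and 6.67, against at most 5.35 and 6.14 in gland, with differences of -2.16 and -2.55 that did not pass (adjusted p by limma = 0.0274 and 0.102).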

How the data were processed

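Total RNA from 3 gland pools and 3 whole-larva pools of Anopheles gambiae was labelled with biotin and hybridized to 1 Affymetrix array each, per the labels' protocols. The deposited values were taken as log2 RMA values, because the submitters' processing notes name RMA and the values run from 2.46 to 14.9. The sources used here give no version or settings of RMA. Groups and replicate numbers come from the sample titles.

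All 16884 Anopheles probe sets were fitted with limma 3.58.1 in R 4.3.3 (lmFit, eBayes with an intensity trend, group as the only term, Benjamini-Hochberg adjustment), and the 1938 unplaced ones are reported. The 2-fold limit and the 1% false discovery rate follow the series' design, with limma in place of its plain test. The detection calls that the design names were not used here. Bright called members whose groups do not overlap were named, up to 12 each way by size, with the 3 brightest members per tissue and the partners of named members. The members with a large spread, those with an uncalled 4-fold difference and those in which probe sets of a number disagreed were chosen after their values were seen. Members and lists were chosen with earlier results of these data known. Level matching is a description without a test. Arm 2R entered the fit and was left out of the placed set, except in 1 alternative. The gene table (15165 genes) matched 0 members. No arrays held identical values (0 pairs). The scripts were tested on simulated data. Matplotlib 3.10.9 (Python 3.11.15) drew the figures.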

Additional observations from a re-analysis of the deposited data

How the results depend on the processing

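Deviations of same-numbered gland and whole-larva arrays correlated at 0.10, -0.087 and -0.0022, and those of differently numbered ones at -0.17 to 0.19. With 3 arrays a group, this cannot tell whether the replicate numbers pair the arrays. With the replicate block, 11 members were higher (matched placed share 0.988%) and 31 lower. The equal-variance t-test left 0 higher and 5 lower (matched 0.111% and 0.302%; 465 and 96 at an unadjusted p under 0.05), centring on the numeric-identifier probe sets 8 and 70 (0.724% and 6.91%), and repeated quantile normalization 36 higher (2.39%). The numeric floor left 14 higher, the 4-fold limit 7 higher (0.553% matched higher, 1.86% matched lower), leaving out _s_at and _x_at 16 lower, and an adjusted p under 0.05 gave 50 lower (matched 2.34% higher, 5.39% lower). With rows above the numeric floor alone in the fit, the matched shares were 6.20% and 13.2% (members 4.02% and 8.75%) and the median shift 0.28 (0.12 in the full data). Matching on the whole-larva or gland mean gave 2.26% or 4.81% lower. The numeric floor, the 4-fold limit and the adjusted p under 0.05 alter only the call rule on the same fit. The causes of the other changes were not tested. Leaving out 1 array gave 4 to 27 higher and 17 to 48 lower members, matched shares of 0.620% to 1.58% and 1.29% to 4.62%, and shifts of 0.10 to 0.14. Of 580 refits of named members, 66 lost a call, 9 gained one and none of the calls changed sign. With 3 arrays a group, counts near these limits are imprecise, and dim members give bounds only.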

Other observations

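Members with low identifier numbers were brighter and held a larger share of lower calls, in bands of number chosen after the data were seen and given without a test. Numbers 4 to 100 had 75 members with a median level of 7.06, of which 3 were higher and 11 lower in gland (4.00% and 14.7%). Over all Anopheles probe sets the shares were 2.39% and 4.99%. Among placed probe sets at levels from 7 to 8, the band that holds these members' median, they were 4.38% and 12.5%. Members of a range of numbers also lie at other levels, so the comparisons here and below are not matched by level. The next 76 members, up to number 200, had a median level of 6.17, with 0 higher and 5 lower (6.58%; 5 and 22 at limma's unadjusted p under 0.05), against 1.98% and 6.18% of placed probe sets from 6 to 7. The following 1699 members, up to number 2198, had a median level of 5.30, with 16 higher (0.942%) and 14 lower (0.824%), against 0.983% and 2.15% of placed probe sets from 5 to 6. Numbers 2201 to 2704 had 88 members, none of which names a coding or untranslated target, with a median level of 6.24 and 3 calls each way (3.41%). The sources used here do not say what the numbering follows.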
